A study of Homo sapiens with 10 samples.

Results

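Kinesin genes, which encode the motor proteins that move along microtubules, were examined in 10 RNA sequencing libraries of the lung cancer cell lines H460 and A549. All genes of the deposited table that were annotated as protein coding and carried a symbol of KIF followed by a digit were taken, which gave 39 of 46427 genes, or 39 of the 19672 protein-coding ones. By known function, 13 were placed in a mitotic list, 13 in a list of cargo transport, 9 in a list of cilium and microtubule kinesins and 4 in a remaining list. The H460 libraries comprised 3 of parental cells in flat plastic culture (2D), 1 of cisplatin-resistant (CR) cells, 2 of paclitaxel-resistant (PR) cells, 1 of doxorubicin-resistant (DR) cells and 1 of tumor spheroid (TS) cells. The A549 libraries comprised 1 of 2D and 1 of TS culture. The drug-resistant cells were those that survived 4 µM cisplatin, 5 nM paclitaxel or 0.5 µM doxorubicin over 3 days, recovered in fresh medium over another 3 days and attached after re-plating, with RNA collected on day 8. TS cells had been passaged at least 3 times in suspension, in RPMI medium with B27, bFGF and EGF on plates that prevent attachment, and their labels name the method as a circulating tumor cell or sphere culture. Both lines are established human lines, no genetic change was made, and poly(A) RNA of whole cultures was sequenced.

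Nothing in the labels says that replicates came from separate cultures, so p-values measure the spread between these libraries. Library depth ran from 59499787 to 89541774 counted reads (median 71656787). Of 5 epithelial markers, the keratins KRT8 and KRT18 were at or above 190 FPKM in every library (FPKM, a level scaled by transcript length and library size). The other 3 differed between the lines. CDH1 was at or below 0.0266 FPKM in every H460 library and at 9.29 and 11.9 FPKM in A549 2D and TS cells. EPCAM was at or below 0.114 FPKM in every H460 library and at 0.923 and 1.04 FPKM in A549 2D and TS cells. KRT19 was at or above 138 FPKM in every H460 library and at 3.57 and 68.3 FPKM in A549 2D and TS cells. The lung lineage markers NKX2-1, SFTPB, SFTPC and NAPSA reached at most 0.427 FPKM, so that the lung origin rested on the labels. Of the 8 markers of blood, endothelial and stromal cells, CD14 reached 17.1 and COL1A1 6.51 FPKM, both in PR cells. One library stood apart: PR replicate 1 held more mitotic kinesin transcript than the other 3 drug-resistant libraries for each expressed mitotic member. The counts of kinesins called against parental cells are also given without it, whereas most fold changes, group means and sums include it.

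Kinesins convert ATP into movement along microtubules or into the shortening of microtubule ends. One set works in the spindle and at the cell's division site, and its genes are transcribed mainly in dividing cells. The other set carries vesicles, endosomes and organelles through the cell at any stage of the cycle. Paclitaxel stabilizes the microtubules on which these motors run, whereas cisplatin and doxorubicin damage DNA.

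The promoters of the mitotic members are shown first, because they share short elements that the choice of members did not use. These are the CCAAT box and the cell cycle genes homology region (CHR), taken as TTTGAA or as its variant TTTAAA. Both were searched on both strands in windows of 250 bases before to 50 bases after each gene start of RefSeq (GRCh38.p14). TTTGAA and TTTAAA cannot match at the same position, and overlap between a CHR and a CCAAT box was not counted apart. The following stretches run 5′ to 3′ on the gene's strand from position -110 to position 10 counted from the first transcribed base, and capitals mark each match on either strand (ATTGG and TTCAAA are the reverse forms). In the 5 members shown a CHR lay 23 to 35 bases downstream of the nearest CCAAT box, limits that these 5 members set themselves. Of the 11 mitotic members with a CHR, 7 lay within these limits, the 5 that set them and KIF4B and KIF18B. KIF4B is nearly identical to KIF4A, which helped set the limits, and both had a spacing of 24 bases. KIF23 had a smaller spacing, KIF20B had 122 and 128 bases, and KIF2C and KIF15 had no CCAAT box upstream of the CHR. The spacing was tallied in mitotic members only, so how often other genes have it is not known.
KIF20A (chr5:138179002-138179121, plus strand): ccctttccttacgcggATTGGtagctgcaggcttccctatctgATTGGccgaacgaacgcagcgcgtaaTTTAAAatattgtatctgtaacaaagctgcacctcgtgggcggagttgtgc
KIF11 (chr10:92593020-92593139, plus strand): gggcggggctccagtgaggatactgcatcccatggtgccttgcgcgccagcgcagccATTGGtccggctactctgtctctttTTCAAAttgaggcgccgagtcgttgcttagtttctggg
KIF4A (chrX:70289994-70290113, plus strand): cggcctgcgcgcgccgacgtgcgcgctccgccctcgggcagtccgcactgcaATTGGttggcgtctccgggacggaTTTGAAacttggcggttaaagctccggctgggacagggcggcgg
KIF18A (chr11:28108147-28108266, minus strand): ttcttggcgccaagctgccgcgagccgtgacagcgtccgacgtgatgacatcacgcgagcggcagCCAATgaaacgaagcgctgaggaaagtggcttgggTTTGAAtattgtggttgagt
KIF14 (chr1:200620742-200620861, minus strand): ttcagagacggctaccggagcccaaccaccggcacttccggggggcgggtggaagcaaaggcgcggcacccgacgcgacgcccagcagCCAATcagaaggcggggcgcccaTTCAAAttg

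The next stretches cover the same positions of KIF23 and KIF22, which kept the largest share of their transcript in drug-resistant cells among the mitotic members. KIF23 held its CCAAT box and TTTGAA 9 bases apart, with a TTTAAA at position -211 outside the stretch, and KIF22 held a CCAAT box and no CHR. KIF2C, KIF15 and KIF20B also lacked the spacing shown above. Their log2 fold changes in drug-resistant against parental cells were -3.82, -3.95 and -3.12, larger falls than those of KIF23 and KIF22. A link between motif layout and the fall was not tested.
KIF23 (chr15:69414239-69414358, plus strand): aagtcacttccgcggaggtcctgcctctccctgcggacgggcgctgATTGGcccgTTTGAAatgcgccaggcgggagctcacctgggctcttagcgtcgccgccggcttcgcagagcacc
KIF22 (chr16:29790641-29790760, plus strand): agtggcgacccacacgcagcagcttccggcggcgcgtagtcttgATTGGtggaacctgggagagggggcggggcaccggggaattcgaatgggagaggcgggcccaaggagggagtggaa

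For contrast, KIF5B was the only transport member with both TTTGAA and CCAAT, and its CHR lay upstream of its CCAAT box, in a stretch shown from position -150 to position 10.
KIF5B (chr10:32056416-32056575, minus strand): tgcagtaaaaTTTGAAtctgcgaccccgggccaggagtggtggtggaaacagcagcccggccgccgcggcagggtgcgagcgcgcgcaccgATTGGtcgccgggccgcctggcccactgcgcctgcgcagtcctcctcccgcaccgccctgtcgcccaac

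Counted per gene over all its windows, TTTGAA occurred in 9 of 13 mitotic members (69.2%), against 15.9% of the 15515 protein-coding genes with a window. CCAAT occurred in 10 of 13 mitotic members (76.9%) against 42.3%. TTTGAA together with CCAAT occurred in 8 of 13 (61.5%) against 6.62%, and either CHR form in 11 of 13 (84.6%) against 24.6%. Each of these mitotic counts includes KIF4B beside KIF4A, to which it is nearly identical, and KIF4B was at or below 0.113 FPKM in every library. Of the 11 transport members with a window, 1 held TTTGAA, 4 held CCAAT and 2 held either CHR form. None of the 6 cilium and microtubule members with a window held a CHR of either form. These are matches of letters, not measured binding sites, and base composition was not matched.

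**Figure D1:**
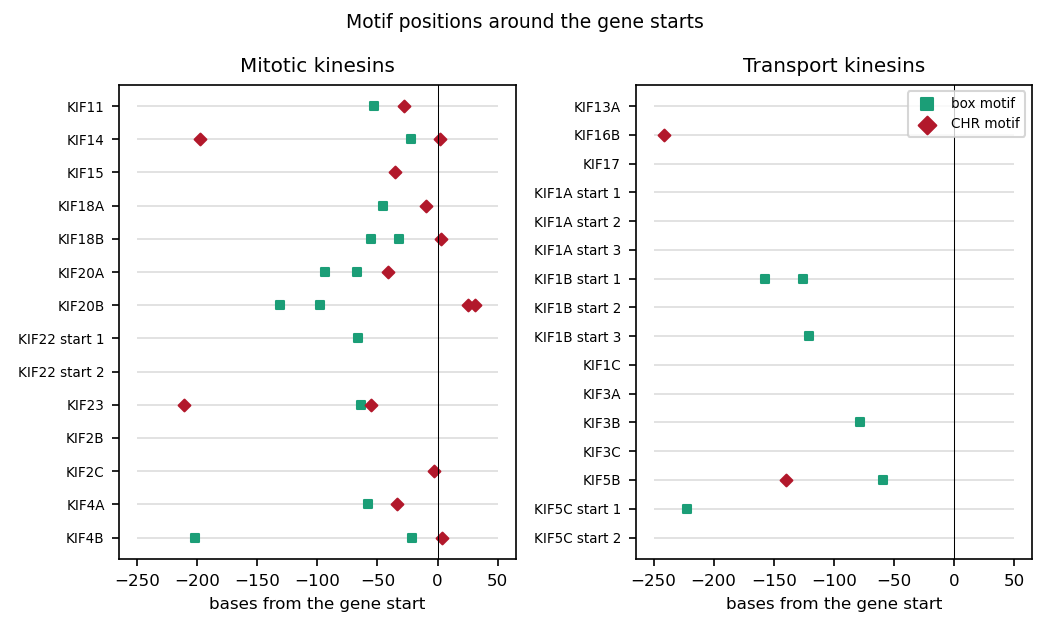
Positions of the CCAAT box (squares, marked box motif) and of either CHR form (diamonds) on both strands around each RefSeq gene start, in bases from the start (x axis), with 1 line per window. Of the 13 mitotic genes on the left 11 hold a diamond, and of the 11 transport genes on the right 2 do.

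Of the 39 kinesin genes, 24 had a mean of at least 1 FPKM over the 10 libraries: 11 mitotic, 9 transport, 3 cilium and microtubule members and KIF26A. In parental H460 cells the most abundant mitotic members were KIF20A, which brings the chromosomal passenger complex to the central spindle, and KIF22, a motor that binds chromosomes. KIF20A was at 45.3, 52.9 and 42.7 FPKM and KIF22 at 43.6, 51.3 and 32.3 FPKM. KIF20A was thus above KIF22 in each parental library, although their ranges overlapped. KIF18A, KIF20B and KIF15 had the lowest means among the 11, with KIF15, a spindle motor that acts beside KIF11, at 7.01, 8.21 and 5.15 FPKM. Among transport members KIF5B, the heavy chain of conventional kinesin, was highest at 33.5, 29.7 and 24.8 FPKM. It was followed by KIF1C, a carrier of vesicles, at 27.9, 19.8 and 17.96 FPKM, lower in each parental library although the ranges overlapped. The 15 members below a mean of 1 FPKM reached a mean of at most 0.927. They included the neuronal carriers KIF1A, KIF5A and KIF5C, and KIF2B, which had an FPKM of 0 in every library.

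The first comparison asked which kinesins differed in cells that survived a drug. Across the 4 drug-resistant libraries, the 11 expressed mitotic kinesins were lower than in the 3 parental libraries, while 12 of 13 transport kinesins did not pass the test. Of 34 members tested with edgeR's quasi-likelihood test, 15 were lower and 0 were higher, against 15.3% lower and 18.5% higher among all 18398 genes tested. By list, 11 of 12 mitotic, 1 of 13 transport, 3 of 7 cilium and microtubule and 0 of 2 remaining members were lower. The median log2 fold change was -3.48 for mitotic members, 0.06 for transport members and 0.06 for all genes. The 4 transport members with a mean below 1 FPKM had estimates from 0.55 to 0.98, and the 9 expressed ones from -0.93 to 0.37. Beside the 0 higher members, 20 of the 34 had an unadjusted edgeR p under 0.05 in either direction, against 8295 of all 18398 genes. DESeq2 called 2 of the 34 higher, KIF21B and KIF26B, against 3911 of all 18398 genes.

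KIF14, which binds the midbody proteins PRC1 and citron kinase, showed the largest change. It was at 11.5, 13.2 and 9.09 FPKM in parental cells and at 0.198 in CR, 1.68 and 0.152 in PR and 0.295 FPKM in DR cells. The lowest of these rested on 76 reads. The groups did not overlap, and the PR replicates differed from each other more than CR differed from DR. The log2 fold change was -4.38 (SE 0.72, adjusted p = 0.00168).

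KIF20A fell from the parental values above to 1.16 FPKM in CR, 7.46 and 1.14 in PR and 1.503 FPKM in DR cells. No drug-resistant value reached the parental range, with a log2 fold change of -4.20 (SE 0.62, adjusted p = 0.000964). KIF15 was at 0.281 FPKM in CR, 1.16 and 0.156 in PR and 0.251 FPKM in DR cells, again without overlap. Its log2 fold change was -3.95 (SE 0.56, adjusted p = 0.000771).

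The other spindle motors followed. KIF11, which pushes the spindle poles apart, was at 25.9, 29.9 and 19.5 FPKM in parental cells and at 1.52 in CR, 4.94 and 0.820 in PR and 1.44 FPKM in DR cells. KIF2C, which takes microtubule ends apart at centromeres, was at 18.2, 22.7 and 16.2 FPKM in parental cells and between 0.677 and 3.14 FPKM in drug-resistant cells. For both genes the groups did not overlap. The chromosome-bound KIF4A, the chromosome-aligning KIF18A with its relative KIF18B, and KIF20B of late division showed log2 fold changes between -3.73 and -3.08.

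KIF23 and KIF22 fell least. KIF23, which forms the centralspindlin complex with RACGAP1, was at 24.01, 24.4 and 19.2 FPKM in parental cells and at 3.66 in CR, 6.90 and 3.52 in PR and 3.65 FPKM in DR cells, with a log2 fold change of -2.43. KIF22 was at 11.6 FPKM in CR, 12.99 and 9.65 in PR and 9.79 FPKM in DR cells, with a log2 fold change of -2.03. These were still non-overlapping groups. Together both genes made up 28.1% ± 1.03 (SD, n = 3) of the mitotic kinesin FPKM in parental cells and 38.9% to 69.7% in the 4 drug-resistant libraries.

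The remaining mitotic members gave no call. KIF4B is nearly identical to KIF4A, so that reads may be split between both, and had at most 33 reads in a library. KIF2B was not tested, with 0 FPKM throughout.

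**Figure D2:**
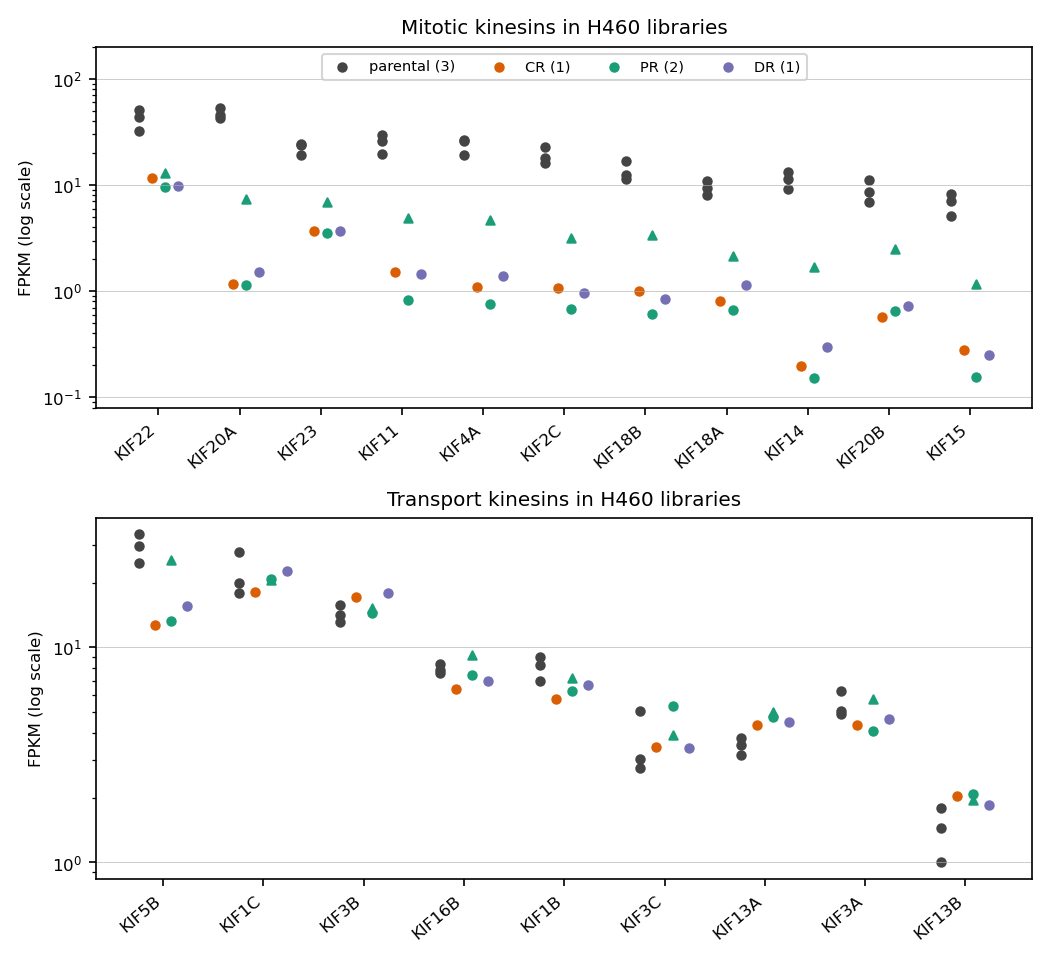
FPKM (log axis) of the 11 expressed mitotic kinesins (top) and 9 expressed transport kinesins (bottom) in H460 libraries, each point 1 library. Parental libraries are grey, CR orange, PR green and DR violet, and the triangle is PR replicate 1. All drug-resistant points of every mitotic kinesin lie below the parental ones, and PR replicate 1 lies above the other 3 drug-resistant libraries.

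All 11 expressed mitotic members lay below every parental library in every drug-resistant library, against 17.6% of the 12049 genes with a mean of at least 1 FPKM. The same held for 0 of 9 transport members, while 2 of 9 lay above, KIF13A and KIF13B, against 20.5% of all these genes. In bulk RNA, fewer dividing cells and less transcript per cell cannot be told apart. The proliferation markers moved beside these genes: MKI67 fell by 3.70, CCNB1 fell by 3.54 and PCNA fell by 1.10 on the log2 scale, and the cell cycle inhibitor CDKN1A was higher by 4.06. Of the 8 markers of other cell types, 2 of 3 tested were higher in drug-resistant cells, COL1A1 at 0.783 to 6.51 FPKM and DCN at or below 0.319 FPKM. CD14, the other one tested, was at 11.5 to 17.1 FPKM against 2.78 to 9.49 FPKM in parental cells and was not called (edgeR, adjusted p = 0.0716). Levels summed over all 8 markers, mostly CD14, were 13.6 to 23.6 FPKM against 2.97 to 9.68 FPKM in parental cells. PTPRC, CD3E, PECAM1, CDH5 and COL1A2 were at or below 0.157 FPKM in all 10 libraries. The part of these genes in the result was not tested.

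The share of transcript that remained differed between the drug-resistant libraries. As a percentage of the parental mean, the 11 mitotic members ranged from 14.9% to 30.7% in PR replicate 1, with a median of 19.7%. They ranged from 1.35% to 22.8% in PR replicate 2 (median 3.56%), from 1.76% to 27.5% in CR (median 6.04%) and from 2.62% to 23.1% in DR (median 5.79%). KIF22 remained highest in all 4 libraries and KIF14 lowest. Without PR replicate 1, 11 mitotic members and 15 members in all were again lower. The library names in the table come in 2 forms of unknown meaning, with or without a hyphen before the year. With it (3 drug-resistant against 1 parental library) the 11 log2(FPKM + 1) differences ran from -4.58 to -2.21, and without it (PR replicate 1 against 2 parental libraries) from -2.41 to -1.30.

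Among transport kinesins, KIF5B passed the test. It was at 12.7 FPKM in CR, 25.6 and 13.2 in PR and 15.6 FPKM in DR cells, so that PR replicate 1 lay within the parental range of 24.8 to 33.5 FPKM. The log2 fold change was -0.93 (SE 0.25, adjusted p = 0.0160), and without parental replicate 1 the adjusted p was 0.0605. KTN1, the ER receptor for kinesin-1, fell in the same test by 0.91 on the log2 scale. KIF1A and KIF5A, at or below 0.367 FPKM in every library, had log2 fold changes of 0.98 (SE 0.60, adjusted p = 0.230) and 0.91 (SE 0.84, adjusted p = 0.427). KIF3A and KIF3B, the motors of heterotrimeric kinesin-2, stood at 4.09 to 5.76 FPKM and 14.5 to 17.9 FPKM in drug-resistant cells, against 4.90 to 6.28 and 13.1 to 15.8 FPKM in parental cells. KIF1B, KIF1C, KIF3C and KIF16B overlapped as well.

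KIF13A, an endosome motor, was at 3.77, 3.16 and 3.52 FPKM in parental cells and at 4.34 in CR, 5.01 and 4.74 in PR and 4.52 FPKM in DR cells. KIF13B, a relative of it, was at 1.003, 1.44 and 1.79 FPKM in parental cells and at 2.04 in CR, 1.95 and 2.09 in PR and 1.85 FPKM in DR cells. Both groups were free of overlap, yet neither passed the test (adjusted p = 0.182 and 0.225). KIF13A was called higher with upper-quartile scaling, which shifted the median of all genes to 0.23, and KIF13B was called higher without parental replicate 3.

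Of the cilium and microtubule kinesins, KIF24, a depolymerase of the mother centriole, was at 1.24, 1.23 and 1.36 FPKM in parental cells and at 0.284 in CR, 0.434 and 0.197 in PR and 0.211 FPKM in DR cells, without overlap. Its log2 fold change was -2.12 (SE 0.28, adjusted p = 0.000583). KIF2A, a depolymerase used in spindles and in neurons, was at 20.2, 14.6 and 15.7 FPKM in parental cells and between 8.23 and 12.2 FPKM in the drug-resistant libraries, and its log2 fold change was -0.90 (SE 0.18, adjusted p = 0.00474). KIF21A, which restrains microtubule growth at the cell cortex, had a log2 fold change of -0.97 (SE 0.25, adjusted p = 0.0131), with PR replicate 1 at 15.6 FPKM inside the parental range, and without parental replicate 1 the adjusted p was 0.0574. KIF7, KIF9, KIF21B and KIF27 were not called, nor were KIF26A and KIF26B. Without parental replicate 3 KIF9 was called lower, without parental replicate 2 KIF26A was called lower, and without the CR library KIF26A was called lower and KIF21B and KIF26B higher.

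**Figure D3:**
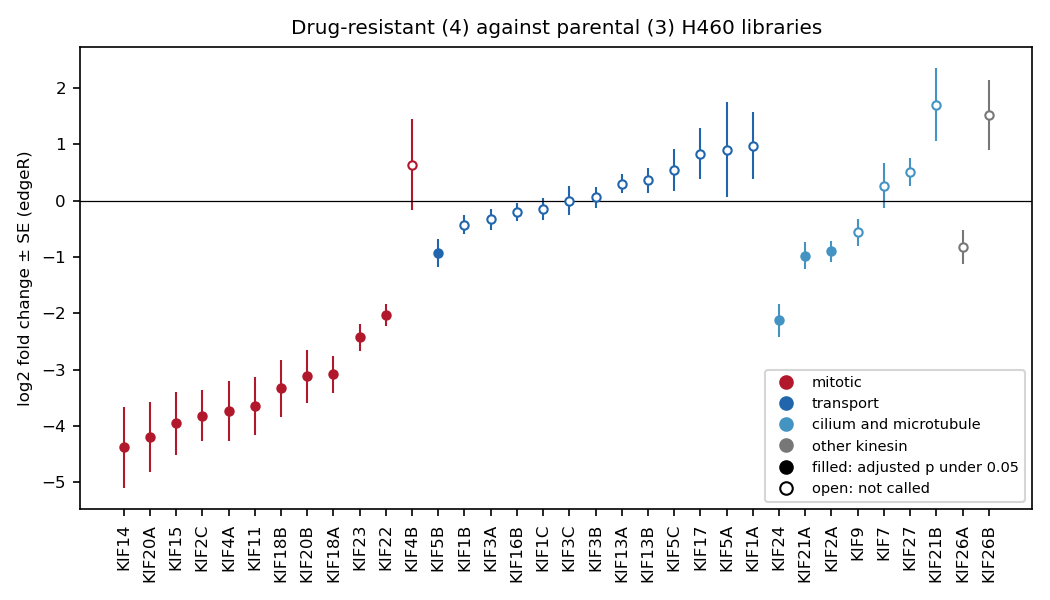
The log2 fold change (y axis, error bars SE from edgeR) of the 34 tested kinesins in 4 drug-resistant against 3 parental H460 libraries, ordered within each list. Filled points passed an adjusted p of 0.05. Mitotic members lie between -4.38 and -2.03 apart from KIF4B, and transport members lie between -0.93 and 0.98.

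Kinesins without the KIF and digit symbol and the proteins that work with these motors were counted in the same fit. CENPE, the kinetochore motor, and KIFC1, the minus-end motor that gathers centrosomes, had log2 fold changes of -3.62 and -3.47, KIFC2 rose by 1.22 and KIFC3 did not pass. All 10 mitotic partners were lower, against 15.3% of all genes, among them AURKB of the chromosomal passenger complex (log2 fold change -3.81) and PRC1, which bundles the central spindle (-3.53). Of 15 transport partners, 4 were higher, against 18.5% of all genes, and 1 was lower, so that neither count stood far from the share over all genes. Among the higher ones were the scaffolds MAPK8IP1 (log2 fold change 1.87) and MAPK8IP3 (1.26) and the light chain KLC4 (0.74). Of 10 tested subunits of cytoplasmic dynein 1, the motor that runs in the opposite direction, DYNC1H1 alone was lower, a share below the 15.3% of all genes. It was at 105, 68.3 and 203 FPKM in parental cells and between 60.8 and 77.9 FPKM in drug-resistant cells, so that the groups overlapped and parental replicate 3 was the highest.

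The mitotic share of the FPKM summed over the 39 members within a library does not depend on scaling between libraries. CENPE and KIFC1 to KIFC3 were outside this sum, with KIFC3 at 50.7 to 68.4 FPKM in parental and 38.9 to 55.9 FPKM in drug-resistant cells. The mitotic share was 56.7%, 64.3% and 56.7% in the parental libraries (59.2% ± 4.39, SD, n = 3) and 17.0% in CR, 27.2% and 14.4% in PR and 15.3% in DR cells (18.5% ± 5.90, SD, n = 4). The highest drug-resistant share was thus far below the lowest parental share. Parental cells held a summed transport FPKM of 96.1 ± 11.3 (SD, n = 3), which overlapped the 83.8 ± 9.00 (SD, n = 4) of the drug-resistant ones, while the mitotic sums were 230.1 ± 36.1 and 28.8 ± 15.0 over the same libraries. No test was run on these sums.

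**Figure D4:**
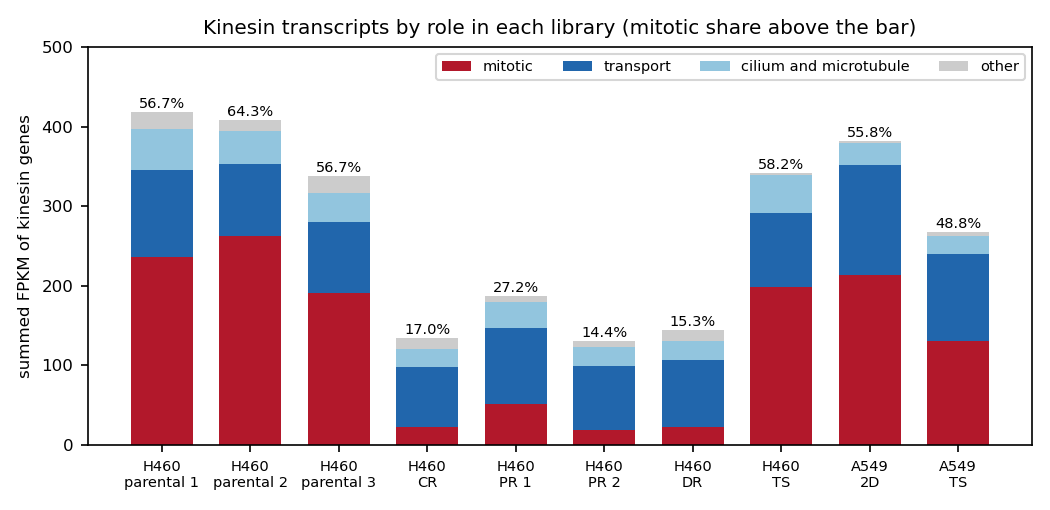
Summed FPKM of the 39 kinesin genes in each of the 10 libraries, stacked by list, with the mitotic share printed above each bar. The mitotic part is short in the 4 drug-resistant bars and the transport part is between 74.6 and 109.1 FPKM in all H460 bars.

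The second comparison took PR, the drug with replicates and the one that acts on microtubules. Against parental cells, 14 of 34 members were lower and 2 higher, with a background of 10.6% lower and 17.5% higher among 19430 genes. This fit shares its libraries with the one above. The 11 expressed mitotic members were lower again, with log2 fold changes from -3.78 for KIF14 (SE 0.83, adjusted p = 0.0104), -3.65 for KIF20A (SE 0.70, adjusted p = 0.00648) and -3.53 for KIF15 (SE 0.70, adjusted p = 0.00723) to -2.11 for KIF22. KIF26A, a kinesin that lacks motor activity, was at 8.30 and 8.05 FPKM in PR, below 20.5, 13.6 and 20.3 FPKM in parental cells, with CR and DR at 14.6 and 13.2 FPKM. Its log2 fold change in PR was -1.40 (SE 0.29, adjusted p = 0.00856), and the adjusted p was 0.0679 without PR replicate 1 and 0.115 without PR replicate 2. KIF5A (1.68, SE 0.53, adjusted p = 0.0436) and KIF21B were higher at levels at or below 0.180 FPKM. KIF1A and KIF17 had log2 fold changes of 1.14 (SE 0.67, adjusted p = 0.227) and 0.99 (SE 0.48, adjusted p = 0.152). With PR replicate 1 left out, 12 members were lower, the 11 mitotic ones and KIF24, and with replicate 2 left out only the 11 mitotic ones. KIF5A, KIF21B and KIF2A were called in neither case, nor without parental replicate 2.

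PR was then set against CR and DR. No member of 35 was called by edgeR, against 0.245% of 19601 genes. An unadjusted edgeR p under 0.05 was held by 6 members, against 4656 of the 19601 genes. DESeq2 called KIF26A lower and KIF5A higher, with 895 genes lower and 1013 higher among all 19601. The mitotic estimates were higher in PR for 11 of 12 members (median 1.00). KIF4B (1.93, SE 0.65, adjusted p = 0.156), KIF14 (1.77, SE 0.98, adjusted p = 0.326) and KIF20A (1.58, SE 0.80, adjusted p = 0.289) were the largest, and without that replicate KIF14 was -0.88 and KIF20A -0.42. Of the transport members KIF5A (2.77, SE 0.66, adjusted p = 0.0903), KIF5C (1.00, SE 0.35, adjusted p = 0.168) and KIF17 (0.44, SE 0.47, adjusted p = 0.610) had the largest estimates. KIF26A, with a log2 fold change of -0.91 (SE 0.15, adjusted p = 0.0672), was called with upper-quartile scaling, with an FPKM filter, without a filter and by DESeq2.

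CR and DR, with 1 library each, were also compared with the parental mean at more than 2-fold on log2(FPKM + 1), without a test. In CR, 11 mitotic members were lower, along with KIF5B and KIF21A, against 1.92% of all genes and 7.05% of those with at least 1 FPKM in a library compared. In DR, the 11 mitotic members alone were lower, against 1.55% and 5.68%. No member was more than 2-fold higher in either, against 1.59% of all genes in CR and 1.57% in DR.

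The third comparison asked how kinesins differed between TS and 2D culture. With cell line in the fit, 0 of 35 members were called by edgeR, against 0.191% of 18372 genes. An unadjusted edgeR p under 0.05 was held by 5 members, against 1363 of the 18372 genes. DESeq2 called KIF26A and KIF5C lower, with 226 genes lower among all 18372. The estimates of all 12 tested mitotic members were lower in TS, with a median of -0.37, against -0.01 for all genes. The largest were KIF4B (-0.93, SE 1.03, adjusted p = 1), KIF15 (-0.48, SE 0.25, adjusted p = 0.830) and KIF11 (-0.47, SE 0.24, adjusted p = 0.821). KIF20A was at 36.0 FPKM in H460 TS, below the 3 parental libraries, and at 27.4 in A549 2D and 18.1 FPKM in A549 TS cells. In H460 TS the expressed mitotic members were at 75.4% to 107% of the parental mean, and in A549 TS they were at 54.0% to 81.5% of the 2D library. The mitotic share of kinesin FPKM was 58.2% in H460 TS, within the parental range, and 55.8% and 48.8% in A549 2D and TS cells.

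KIF26A was at 2.83 FPKM in H460 TS, 15.6% of the parental mean, and went from 1.4997 to 0.867 FPKM in A549. H460 TS lay below each other H460 library, the drug-resistant ones included. The combined log2 fold change was -1.87 (SE 0.54, adjusted p = 0.345), and on log2(FPKM + 1) KIF26A was the only member more than 2-fold lower in H460 TS, against 0.526% of all genes and 1.97% of those with at least 1 FPKM in a library compared. With a pseudocount of 0.1 in place of 1, 2 members were past that limit. KIF5C had a log2 fold change of -3.64 (SE 0.63, adjusted p = 0.105) at levels at or below 0.880 FPKM, KIF5A of -2.90 (SE 1.22, adjusted p = 0.665) and KIF1A of -0.97 (SE 0.79, adjusted p = 1).

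No member of 36 differed in its TS response between the lines by edgeR, against 0.436% of 19941 genes. An unadjusted edgeR p under 0.05 was held by 4 members, against 1628 of the 19941 genes. DESeq2 called KIF21B lower, with 139 genes lower among all 19941. This interaction draws its spread from the 3 parental libraries alone. KIF4B (-2.57, SE 2.18, adjusted p = 0.997), KIF23 (-1.0005, SE 0.52, adjusted p = 0.747) and KIF18B (-0.81, SE 0.58, adjusted p = 0.944) had the largest mitotic differences, and KIF5A (5.99, SE 2.63, adjusted p = 0.612), KIF17 (-2.74, SE 1.16, adjusted p = 0.583) and KIF5C (2.03, SE 0.95, adjusted p = 0.661) the largest transport ones.

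The last comparison was between the lines, taking culture into account. In A549, 7 members were higher and 3 lower of 35, against 14.4% and 9.42% of 18372 genes. Transport motors gave 4 of the higher calls, and mitotic members gave 1 lower call. KIF3C, a kinesin-2 motor, was at 14.5 and 9.25 FPKM in A549 2D and TS cells, against 2.75, 3.04 and 5.05 FPKM in parental H460 and 4.04 FPKM in H460 TS cells. KIF13A was at 9.80 and 5.61 FPKM in A549 and at 3.58 FPKM in H460 TS cells. KIF13B was at 3.24 FPKM in A549 2D and 7.44 FPKM in A549 TS cells, against 1.24 FPKM in H460 TS cells. For these 3 genes both A549 libraries lay above all parental and TS libraries of H460. The log2 fold change was 1.77 for KIF13B (SE 0.43, adjusted p = 0.0256), 2.41 for KIF5C (SE 0.53, adjusted p = 0.0193) and 1.94 for KIF5A (SE 1.08, adjusted p = 0.238). The adjusted p of KIF13B was 0.0538 without parental replicate 1 and 0.0660 without replicate 2, and that of KIF5C was 0.0598 without replicate 2.

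KIF20A was the mitotic member that passed, with a log2 fold change of -0.87 in A549 (SE 0.21, adjusted p = 0.0282), and its adjusted p was 0.0588 without parental replicate 1 and 0.0619 without replicate 2. KIF14 (-0.85, SE 0.25, adjusted p = 0.0501) and KIF15 (-0.71, SE 0.25, adjusted p = 0.0828) did not pass. KIF21A was at 7.11 and 8.90 FPKM in A549 and at 15.5 to 24.5 FPKM in parental H460 and H460 TS cells, without overlap, and was lower (log2 fold change -1.38, SE 0.26, adjusted p = 0.0118). KIF26A was lower by 2.79 on the log2 scale. KIF7, a regulator of Hedgehog signalling at the cilium tip, and KIF21B were higher, and neither exceeded 1.27 FPKM. The adjusted p of KIF21B was 0.0588 without parental replicate 1 and 0.0715 without replicate 3.

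KIF12, a kinesin of epithelial cells of kidney and liver, had 0 reads in the 3 parental and the TS library of H460 and 208 and 830 reads in A549 2D and TS cells. With 3 counts taken as the limit that 0 reads allow in each H460 library, it was at least 70.6-fold higher in A549 2D cells and at least 246-fold higher in A549 TS cells, bounds that cover counting error only. On log2(FPKM + 1) it was also the only member more than 2-fold higher in A549 TS than 2D cells, at 4.19 against 1.13 FPKM, while KIF13B, 2.30-fold higher in FPKM, differed by 0.996 on that scale. Of all genes 1.82%, and 6.70% of those with at least 1 FPKM in a library compared, were past that limit. Drug-resistant H460 cells held it at 0.0507 to 0.116 FPKM (10 to 17 reads), above the 0 reads of each parental library. In that comparison it did not pass the filter on low counts, and it was called higher without the filter, with the form of the library names as a covariate, and with any 1 of the parental replicates left out.

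**Figure D5:**
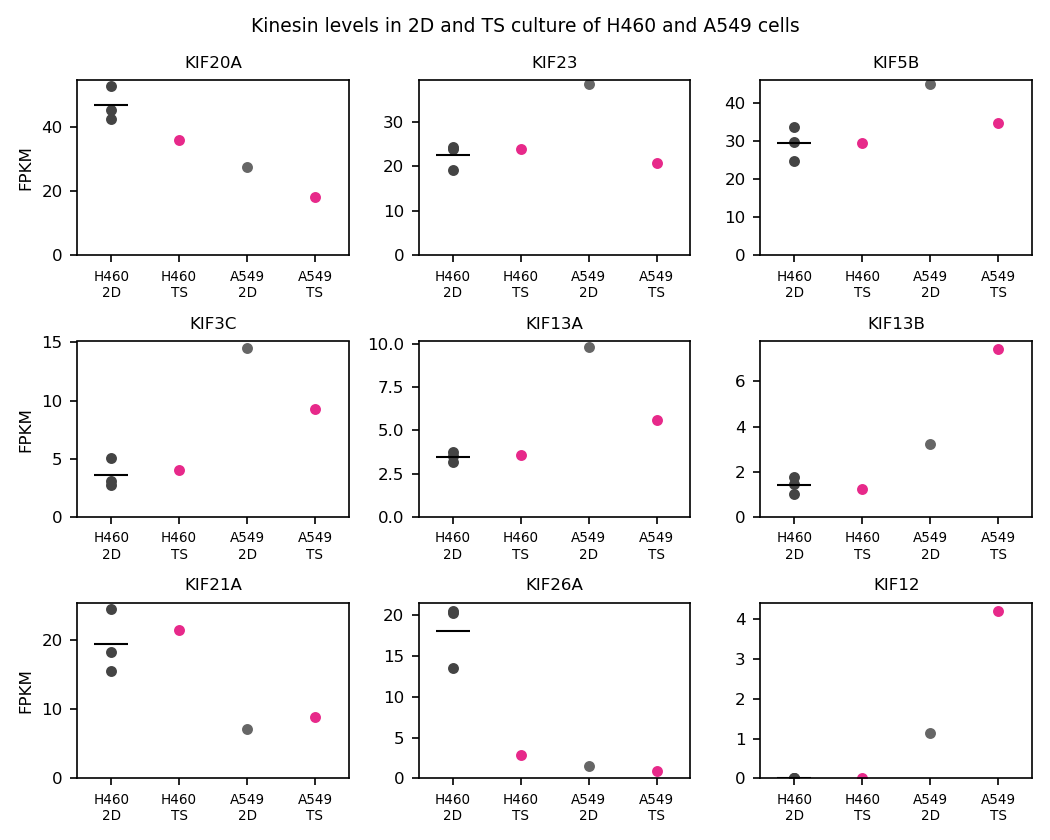
FPKM (linear axes from 0) of 9 kinesins in 2D and TS culture of H460 and A549 cells, each point 1 library and the line the mean of the 3 parental libraries. KIF3C, KIF13A, KIF13B and KIF12 are higher in both A549 libraries, KIF21A and KIF26A are higher in H460 2D cells, and KIF26A is at 2.83 FPKM in H460 TS cells.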

How the data were processed

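RNA was sequenced in 10 libraries of H460 and A549 cells (TruSeq poly(A) kit, strand not given in the sources used here). The submitters' processing notes name bcl2fastq 1.8.4, Trimmomatic, HISAT2 2.1.0, StringTie 2.1.3b and GRCh38. The authors deposited raw read counts per gene, and FPKM values normalized for transcript length and library size. TPM values, which the authors deposited beside them, were not used. Without strand, KIF1C, KIF5C, KIF9, KIF25 and KIF26B cannot be told apart from their antisense genes.

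Counts were tested with edgeR 4.0.16 in R 4.3.3 (quasi-likelihood, TMM scaling, filterByExpr, Benjamini-Hochberg adjustment over all genes tested, threshold 0.05). For the RNA sequencing the study names only a 2-fold limit. Alternatives were other scalings and filters, DESeq2 1.42.0, limma 3.58.1 on log2(FPKM + 1), the form of the library names as a covariate, a replicate block, and each replicate left out. Leaving out the CR or the DR library was chosen after seeing the data. Fold change, SE and adjusted p are given by rule for the 3 mitotic and 3 transport members with the largest change in each comparison, and those of other members were added after their values were seen. The members and lists were chosen with earlier results of these data known. Gene starts and sequences are from RefSeq. On simulated data with 200 changed genes, the drug-resistant design recovered 100% of 4-fold and 100% of 2-fold changes over 18502 genes, PR against CR and DR 99% and 80% over 19289, TS against 2D 100% and 95% over 18178, and the TS response by line 93% and 16% over 18786. Of the calls, 6.10%, 4.79%, 2.99% and 7.63% were false, in the same order. The simulation gave all genes the same dispersion, changed only genes with enough reads and held no outlying library like PR replicate 1. These shares therefore need not hold for the real libraries.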

Additional observations from a re-analysis of the deposited data

Results flagged for a closer look

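Of 24 expressed members, 5 had PR replicate 1 far above the other 3 drug-resistant libraries, all of them mitotic. The gap to the next library was 0.886 of the whole range for KIF20A, 0.944 for KIF23, 0.861 for KIF14, 0.879 for KIF20B and 0.837 for KIF15, above the critical value of 0.829 for 4 samples. Chance passes this value in about 1 of 20 groups, and these genes share the library. KIF16B, an endosome motor, was lower in H460 TS than in each parental library and higher in A549 TS than in 2D cells, with a log2(FPKM + 1) difference of -0.094 in H460 and 0.267 in A549 cells. The difference between the lines did not pass edgeR's interaction test (log2 0.42, SE 0.52, adjusted p = 1.00). Larger opposite differences, such as those of KIF13B (-0.093 and 0.996) and KIF23 (0.087 and -0.858), had H460 TS within the range of the parental libraries.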

How the results depend on the processing

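In drug-resistant and in PR against parental cells, all 11 mitotic calls held under each alternative run, except that DESeq2 called 9 of 12 in drug-resistant cells, where the adjusted p of KIF14 and KIF20A was NA. Upper-quartile scaling made 67.4% of all calls in drug-resistant cells higher instead of 54.6%, and 75.9% instead of 62.2% in PR cells. The count of non-mitotic kinesins called in drug-resistant cells was 4, became 7 with DESeq2 and ran from 3 to 7 with a library left out (all genes 4215 to 6585). In PR cells it was 5 and became 2 with the FPKM filter, 2 with limma, 8 with DESeq2 and 3 with the name form as a covariate, and it ran from 0 to 6 with a library left out. All genes called in PR cells numbered 2742 with the FPKM filter, 3026 with limma and 950 to 6661 with a library left out. With the replicate number as a block, 8 non-mitotic kinesins were called in PR cells, but the numbers are shared by only 2 pairs (r = 0.15 between the pairs' differences over 15302 genes) and are not known to mark paired cultures. For PR against CR and DR, 0 non-mitotic kinesins became 1 with upper-quartile scaling or the FPKM filter and 2 without a filter or with DESeq2. The 48 genes called became 146 with RLE scaling, 318 with upper-quartile scaling, 1227 without a filter, 160 with the FPKM filter, 1908 with DESeq2, 143 with limma and 0 to 1 with a library left out. With a PR replicate left out, the log2 fold change of KIF14 ran from -0.88 to 2.57 and that of KIF20A from -0.42 to 2.31, both reversed without PR replicate 1. For TS against 2D, DESeq2 called 2 non-mitotic kinesins and 537 genes, the FPKM filter left 19 genes, and leaving out a library gave 6 to 35. Between the lines, mitotic calls went from 1 to 2 with upper-quartile scaling, to 3 with DESeq2 and from 0 to 3 with a library left out, and all genes were 2843 with the FPKM filter and 2644 to 3905 with a library left out. The TS response by line gave 1 non-mitotic kinesin and 542 genes with DESeq2, 0 genes without a filter, 27 with limma, and 0 to 1 kinesins and 116 to 656 genes with a library left out. With a pseudocount of 0.1, non-mitotic kinesins more than 2-fold lower numbered 4 in CR, 2 in DR, 2 in H460 TS and 3 in A549 TS, and those higher 1 in DR, 1 in H460 TS and 2 in A549 TS. Those lower numbered 0 in CR against parental replicate 3 alone and 3 in DR against replicate 1 alone. With KIF2A counted as mitotic, the mitotic share was 25.01% in drug-resistant cells, 23.2% in CR, 21.0% in DR and 63.3% in H460 TS. Without the most abundant member of each list it was 10.3% in CR and 10.3% in DR, and without kinesin-2 members 61.6% in A549 2D and 54.3% in A549 TS. The cause of these differences was not tested. CR, DR, TS and A549 cultures rested on 1 library each, and genes under 1 FPKM on few reads.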
